A study of Mus musculus with 11 samples.

Results

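The oligoadenylate synthetase genes are a family of interferon-induced antiviral genes, and 8 of them were followed here in mouse macrophages given a microRNA-150 mimic. Members were chosen by name from the deposited table, and Oas1a, Oas1b, Oas1c, Oas1g, Oas2, Oas3, Oasl1 and Oasl2 gave 8 genes of the 31936 listed, all 8 of which passed the filter on low values that left 12969 genes to test. The cells were inflammatory macrophages from the abdominal cavity of female mice, drawn there with thioglycollate, and their total RNA was sequenced. There were 6 libraries of cells given the miR-150 mimic, a synthetic RNA that adds microRNA-150 activity, and 5 libraries of cells given a negative control. The labels used here give no strain, age, dose, time or means of delivery, and do not say if each library is its own animal or culture. The p-values therefore speak only of the variation among these libraries, part of which may be technical. The control libraries carry the numbers 1, 2, 3, 4 and 6; per the labels, the submitters omitted another control for a fragmentation problem. Mature microRNAs are not read by such libraries, so the level of the mimic was not measured.

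Synthetases of this family bind double-stranded RNA and join ATP into 2-5A, short chains of adenylate with an unusual 2′-5′ bond. 2-5A is a second messenger of the antiviral response, through which RNA is cut and protein synthesis stops. In resting macrophages the genes are transcribed at a low level under tonic interferon, and transcription rises when interferon activates ISGF3, a transcription factor complex, at a promoter element of GAAA repeats. Some members make no 2-5A and act in other ways, such as mouse Oasl1, which restrains translation of the messenger of Irf7.

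Read totals were 20313901 to 25473814 in the mimic libraries and 18538509 to 22668862 in the control libraries. Mimic replicates 3, 4 and 6 stood apart from mimic replicates 1, 2 and 5: over all tested genes, the median absolute log2 difference was 0.132 to 0.231 between libraries of the 2 sets, 0.0828 to 0.114 between libraries within a set, and 0.0806 to 0.104 between control libraries. Fold changes over all genes rose with transcript length (Spearman correlation of 0.251 across 12933 genes, which are not independent replicates). Of 6 macrophage markers (Adgre1, Cd68, Csf1r, Lyz2, Itgam and Mertk), all 6 were measured, and their summed level was 15985 to 19344 CPM in the mimic libraries and 17899 to 20220 CPM in the control libraries, with 1 called higher and 1 lower. Of the 4 plasmacytoid dendritic cell markers, which would mark a professional source of interferon, 1 was high enough to test and none was called, with a summed level of 0.593 to 1.06 CPM in mimic and 0.441 to 0.968 CPM in control libraries. Markers of neutrophils, T, B and NK cells summed to at most 14.6 CPM per list in mimic libraries and 16.4 CPM in control libraries, with S100a8 of neutrophils called lower, and no marker of these lists was at 0 in every library. Mast cell and eosinophil markers summed to 27.5 to 29.2 CPM in mimic and 33.4 to 36.2 CPM in control libraries, with Siglecf called lower. The 5 mesothelial and fibroblast markers summed to 22.3 to 41.9 CPM in mimic and 30.7 to 45.5 CPM in control libraries, and none was called. The part of these small amounts in the results was not tested.

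The 8 genes lie on chromosome 5 in 2 clusters (GENCODE M21 on GRCm38, which may not be the annotation of the deposited table). Oasl2 (114896936 to 114912234) and Oasl1 (114923240 to 114937915) are neighbours on the plus strand. Oas2 (120730333 to 120749853), Oas3 (120753098 to 120777661), Oas1c (120800194 to 120812514), Oas1b (120812635 to 120824163), Oas1g (120876142 to 120887613) and Oas1a (120896256 to 120907521) make up the other cluster, all on the minus strand except Oas1b. Oas1c and Oas1b therefore start back to back.

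The promoter sequences are shown because Oas1a and Oas1g carry nearly the same stretch around the interferon element. As described further on, these genes changed by different amounts. The part of the promoters in this was not tested. RefSeq windows on GRCm38.p6, from 250 bases before to 50 after the start, were at hand for 6 of the 8 members, all but Oas1b and Oas2. They were searched on both strands for GAAA followed, after any 2 bases, by GAAA, the core of the interferon-stimulated response element. It was present in 4 of the 6 (Oas1a, Oas1c, Oas1g and Oas3), against 3.18% of the windows of 9516 tested genes. No match lay in the windows of Oasl1 and Oasl2, nor in those of 2 relatives that are no members, Oas1f and Oas1h. Sequences run 5′ to 3′ on the strand of the named gene, and capitals mark the motif; in Oas1a, Oas1b and Oas1g 2 matches overlap.
Oas1a: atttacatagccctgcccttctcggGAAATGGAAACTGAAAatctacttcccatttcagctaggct
Oas1g: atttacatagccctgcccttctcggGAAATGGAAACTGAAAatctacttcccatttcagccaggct
Oas1b: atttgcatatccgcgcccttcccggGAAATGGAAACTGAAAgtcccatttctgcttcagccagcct
Oas3: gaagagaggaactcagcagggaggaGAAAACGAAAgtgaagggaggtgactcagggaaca
These are chr5:120907505-120907570 (minus strand), chr5:120887591-120887656 (minus), chr5:120812588-120812653 (plus) and chr5:120777700-120777759 (minus). The Oas1a and Oas1g stretches differed at 1 of 66 bases, and those of Oas1a and Oas1b at 15 of 66. Outside these short stretches the likeness was lower: the full 300-base windows of Oas1a and Oas1g were 88.8% identical in 294 aligned bases. The motif ended 5 bases before the start used for Oas1a and 3 before that of Oas1g. The Oas1b stretch was read from the window of Oas1c: the same 16 motif bases lie 7 bases before the annotated start of Oas1b and, on the opposite strand, 99 bases before that of Oas1c. A match describes the letters and does not show that a factor binds. The lack of an exact match in 1 window per gene does not show that an interferon element is absent. Oas1a and Oas1g, with nearly the same stretch, were counted separately.

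All 8 synthetase genes were higher with the mimic, by 1.78-fold for Oas1c to 3.78-fold for Oasl1 (limma adjusted p of at most 9.37e-07). Over all tested genes, 15.4% were called higher and 14.6% lower. The family was chosen with earlier results of these data known. In each of the 8, every mimic library lay above every control library, a pattern shown by 8.89% of all tested genes. Their median log2 fold change was 1.66, beside 0.00071 over all tested genes, and 1.15% of all genes were called with a rise of at least 1 log2 unit, as 7 of the 8 were. Together the 8 genes made up 1210 ± 62.2 CPM (SD, n = 6) in mimic libraries and 380 ± 43.9 CPM (SD, n = 5) in control libraries. RNA was taken from bulk cells, so more cells expressing a gene and more RNA per cell cannot be told apart. In the authors' deposited table the log2 fold changes of the members ran from 0.83 for Oas1c to 1.91 for Oasl1.

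**Figure D1:**
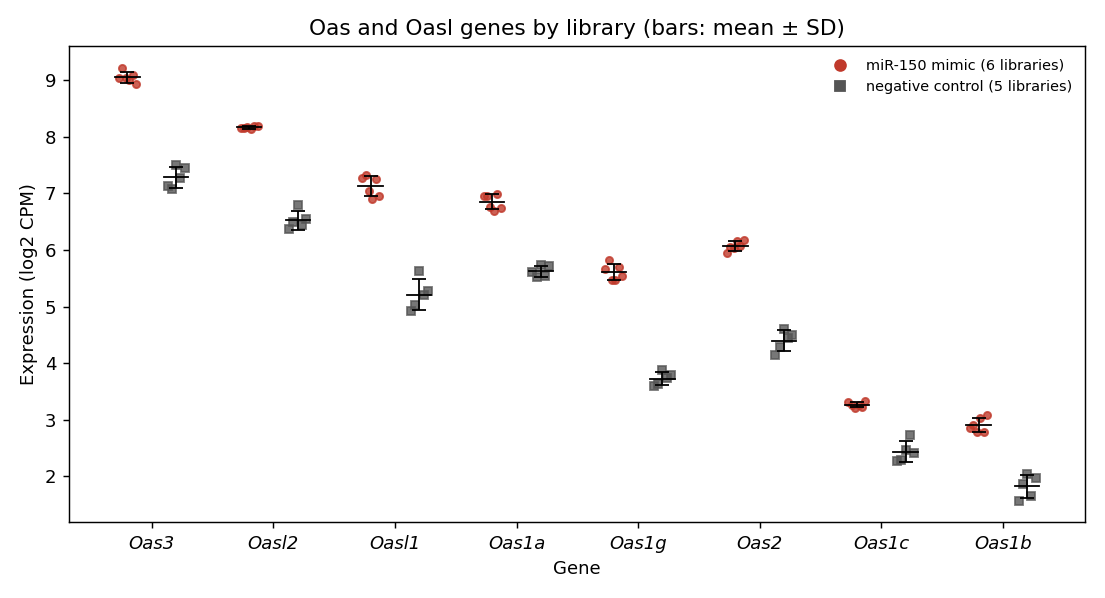
Expression (log2 CPM) of each gene in the 6 mimic libraries (circles) and the 5 control libraries (squares), with mean ± SD; genes run from the highest to the lowest member by level per kilobase in mimic libraries. The groups are apart for all 8 genes, by 0.47 log2 units for Oas1c to 1.59 for Oas1g at their nearest libraries.

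Oas3, whose protein strings several synthetase units together and which in human cells is the main source of 2-5A, was the most abundant member. Its log2 CPM in the mimic libraries had a lowest value of 8.94, a median of 9.04 and a highest of 9.22. In control replicates 1, 2, 3, 4 and 6 it was 7.13, 7.08, 7.50, 7.26 and 7.45. The lowest mimic library stood 1.44 log2 units above the highest control. The rise was 1.77 ± 0.072 (SE) on the log2 scale, or 3.41-fold (limma adjusted p = 3.09e-11).

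Oas2, also built of tandem synthetase units, was far less abundant. It measured 5.95, 6.05 and 6.17 log2 CPM (lowest, median, highest) in the mimic libraries, against 4.15, 4.29, 4.61, 4.44 and 4.49 in control replicates 1, 2, 3, 4 and 6. The groups were 1.33 log2 units apart at their nearest. The rise of 1.67 ± 0.070 (SE) was 3.19-fold (limma adjusted p = 2.27e-11). The longest annotated coding sequence was 3414 nt for Oas3 and 2253 nt for Oas2, against 1101 nt for the single-unit Oas1a.

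Oas1a and Oas1g encode single-unit synthetases and are the closest pair in the family. Oas1a measured 6.68, 6.86 and 6.99 log2 CPM (lowest, median, highest) with the mimic, against 5.605, 5.53, 5.73, 5.53 and 5.71 in control replicates 1, 2, 3, 4 and 6. It rose by 1.23 ± 0.062 (SE) on the log2 scale, or 2.34-fold (limma adjusted p = 1.75e-10). Oas1g was lower in every library and had the larger rise. Its values were 5.47, 5.596 and 5.82 log2 CPM with the mimic, and 3.60, 3.63, 3.88, 3.74 and 3.79 in control replicates 1, 2, 3, 4 and 6. The rise was 1.88 ± 0.069 (SE), or 3.69-fold (limma adjusted p = 6.13e-12). Their coding sequences are 97% identical in the aligned 1100 bases. Of the 50-base stretches in annotated transcripts of Oas1a, 57.6% also occur in another gene, Oas1g or Oas1b, and for Oas1g the share was 45.7%. With stretches of 100 bases the shares were 40.9% and 31.3%. Read length and the handling of reads that match several genes are unknown, so the split of reads between Oas1a and Oas1g, and with it each one's value, is uncertain.

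Oas1b and Oas1c were the members with the fewest reads, 142 to 217 and 195 to 257 per mimic library and 59 to 93 and 99 to 126 per control library. Oas1b is known in mice as a flavivirus resistance gene, and most laboratory strains carry a premature stop in it; the deposited table lists it as a polymorphic pseudogene. It measured 2.79, 2.88 and 3.09 log2 CPM (lowest, median, highest) in mimic libraries, against 1.57, 1.88, 2.05, 1.65 and 1.98 in control replicates 1, 2, 3, 4 and 6. The transcript was detected in all libraries and rose by 1.08 ± 0.098 (SE), or 2.12-fold (limma adjusted p = 3.61e-07). Oas1c, a mouse relative not known to make 2-5A, measured 3.21, 3.26 and 3.33 log2 CPM with the mimic, and 2.27, 2.29, 2.46, 2.74 and 2.42 in the same order of control replicates. Its rise of 0.83 ± 0.081 (SE), or 1.78-fold (limma adjusted p = 9.37e-07), was the lowest of the family, with a gap of 0.47 log2 units between the nearest libraries of the groups. Oas1b shared 2.98% of its 50-base stretches with other genes and Oas1c 15.1%, those of Oas1c with the paralogues Oas1d, Oas1e, Oas1f and Oas1h. Oas1c and Oas2 also overlap annotated genes on the opposite strand, by 5430 and 1273 bases, and whether counting used strand is unknown.

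The Oasl proteins pair a synthetase-like unit with ubiquitin-like repeats. Oasl2, which in mice does make 2-5A, had the steadiest level of the family with the mimic, at 8.13, 8.17 and 8.20 log2 CPM (lowest, median, highest). Its control replicates 1, 2, 3, 4 and 6 gave 6.37, 6.49, 6.80, 6.43 and 6.54. The rise was 1.64 ± 0.059 (SE), or 3.12-fold (limma adjusted p = 6.13e-12). Oasl1 had the largest rise and the largest spread. It measured 6.90, 7.15 and 7.33 log2 CPM with the mimic, and 4.92, 5.03, 5.62, 5.20 and 5.27 in control replicates 1, 2, 3, 4 and 6. The difference was 1.92 ± 0.12 (SE), or 3.78-fold (limma adjusted p = 5.48e-08), and the nearest libraries of the groups were 1.28 log2 units apart. No 50-base stretch of Oasl1 or Oas2 transcripts was found in another gene, and 0.138% of those of Oasl2 and 0.521% of those of Oas3 were. Oasl1 overlaps the antisense gene Gm13822 by 38 bases; that gene had 141 reads over the mimic libraries and 37 over the control libraries.

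**Figure D2:**
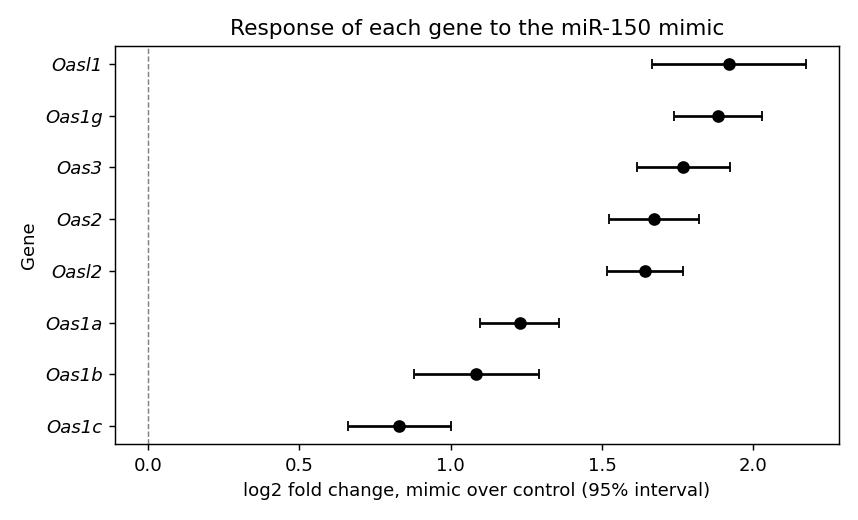
log2 fold change of each gene, mimic over control, with its 95% interval from limma; the dashed line marks no change. Oasl1, Oas1g, Oas3, Oas2 and Oasl2 lie between 1.64 and 1.92, and Oas1a, Oas1b and Oas1c between 0.83 and 1.23.

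The members did not all change by the same amount. The test compared, for each of the 28 pairs, the log2 ratio of the 2 genes within a library between mimic and control libraries, in a two-sided exact permutation test over the 11 libraries; the ratio does not depend on how a library is scaled, and p-values were adjusted over the 28 pairs. Of these, 18 passed an adjusted p of 0.05, and in 16 the ratios of the groups did not overlap. The 28 pairs are built from 8 genes, so their results are not independent. The share of all gene pairs that would pass was not computed. Oas1a, Oas1b and Oas1c each rose less than each of Oas1g, Oas2, Oas3, Oasl1 and Oasl2, and all 15 of these pairs passed, by 0.41 log2 units (Oas1a and Oasl2) to 1.09 (Oas1c and Oasl1). The division into these sets was made once the values were seen. Without mimic replicates 3, 4 and 6 the 15 differences ran from 0.28 (Oas1a and Oas2, against 0.44 in all libraries) to 1.25 in size and all 15 passed.

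Oas1a and Oas1g, with nearly the same motif stretch and coding sequence, were among the pairs that differed. The log2 ratio of Oas1a to Oas1g was 1.24 ± 0.066 (SD, n = 6) in mimic libraries and 1.90 ± 0.076 (SD, n = 5) in control libraries. The difference of -0.66 (95% interval -0.75 to -0.56) had an exact permutation p of 0.00216, the smallest possible with 6 and 5 libraries, and an adjusted p of 0.00404. Oas1c also rose less than Oas1a, by 0.40 log2 units (0.17 to 0.66; exact permutation test, adjusted p = 0.00404).

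Among the 5 members with the larger rises, 2 of 10 pairs passed in all libraries, and 5 of 10 did without mimic replicates 3, 4 and 6. Oas1g and Oasl1 differed in response by -0.04 (95% interval -0.19 to 0.14; exact permutation test, adjusted p = 0.643) and Oas2 and Oasl2 by 0.03 (-0.11 to 0.16; adjusted p = 0.64 in the same test). Oas2 minus Oas3, the multi-unit synthetases, gave -0.10 (-0.27 to 0.08; exact permutation test, adjusted p = 0.267), and without mimic replicates 3, 4 and 6 the difference passed, at -0.21 (adjusted p = 0.0455). Oas1g minus Oas2 gave 0.21 (-0.01 to 0.44; exact permutation test, adjusted p = 0.0722), which passed when mimic replicate 4 was left out (0.26, adjusted p = 0.0333) and when mimic replicates 3, 4 and 6 all were (0.38, adjusted p = 0.0263). Oas2 minus Oasl1 gave -0.25 (-0.54 to 0.02; exact permutation test, adjusted p = 0.0937), which passed in the same 2 settings (-0.31 and -0.46, adjusted p = 0.0234 and 0.0263). Oas1g minus Oas3 gave 0.11 (adjusted p = 0.0722 in the exact permutation test) and passed without mimic replicate 3 or 4 or control replicate 2 (adjusted p from 0.0247 to 0.0423). Oas3 minus Oasl1 gave -0.15 (adjusted p = 0.1 in the same test) and passed without control replicate 3 (-0.20, adjusted p = 0.0421). Oasl2 rose less than Oas1g, by 0.24 (exact permutation test, adjusted p = 0.0143), a pair that did not pass with a pseudocount of 1 CPM (0.18, adjusted p = 0.0702). Oasl2 also rose less than Oasl1, by 0.28 (exact permutation test, adjusted p = 0.0471). That last call was lost without any one of mimic replicates 1, 2, 3 and 5 or control replicates 1, 2, 4 and 6, where the difference lay between 0.24 and 0.30 (adjusted p from 0.0667 to 0.08). It held in 4 of 14 alternative settings of the pair test. Oas1a and Oas1b differed by 0.14 (-0.14 to 0.43) and Oas1b and Oas1c by 0.25 (0.006 to 0.55), with adjusted exact permutation p-values of 0.282 and 0.0702. The first of these passed without mimic replicates 3, 4 and 6 (0.32, adjusted p = 0.0455 in the same test) and with a pseudocount of 1 CPM (0.30, adjusted p = 0.0499). Without control replicate 4 the difference of Oas1b and Oas1c was 0.14 (adjusted p = 0.156 in the same test).

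**Figure D3:**
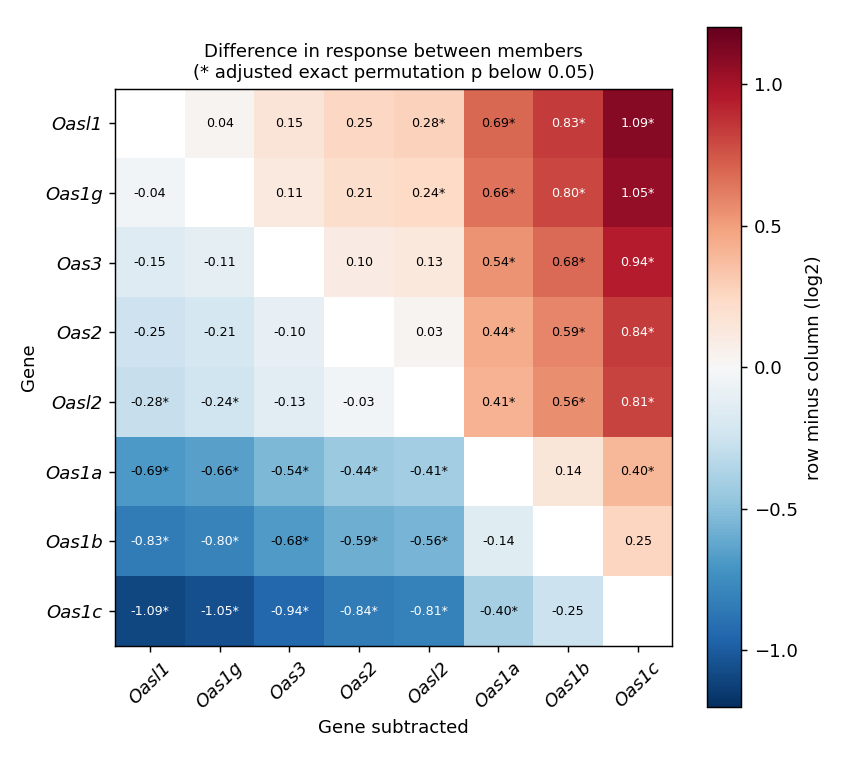
Difference in log2 fold change between each pair of members, gene of the row minus gene of the column, with an asterisk where the adjusted exact permutation p is below 0.05. The block of Oasl1, Oas1g, Oas3, Oas2 and Oasl2 against Oas1a, Oas1b and Oas1c holds differences of 0.41 to 1.09, all with an asterisk.

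Levels were set side by side per kilobase of the longest annotated transcript. In mimic libraries the order was Oas3 (113 ± 7.71 CPM per kilobase, SD, n = 6), Oasl2 (92.1 ± 1.51), Oasl1 (64.6 ± 8.08), Oas1a (61.4 ± 5.55), Oas1g (24.8 ± 2.43), Oas2 (16.98 ± 1.00), Oas1c (4.20 ± 0.13) and Oas1b (4.10 ± 0.37). In control libraries it was Oas3 (33.3 ± 4.34 CPM per kilobase, SD, n = 5), Oasl2 (29.7 ± 3.57), Oas1a (26.2 ± 1.75), Oasl1 (17.2 ± 3.36), Oas1g (6.71 ± 0.53), Oas2 (5.36 ± 0.66), Oas1c (2.38 ± 0.32) and Oas1b (1.94 ± 0.27). Oasl1 and Oas1a changed places: Oasl1 was above Oas1a in 6 of 6 mimic libraries, though the ranges over libraries overlapped, while Oas1a was above Oasl1 in 5 of 5 control libraries with no overlap. With the mimic, Oas1c and Oas1b could not be ordered, as Oas1c was above in 4 of 6 libraries. In control libraries the ranges of Oas3 and Oasl2, of Oasl2 and Oas1a, of Oas1g and Oas2, and of Oas1c and Oas1b overlapped. The lengths come from 1 transcript per gene, so these levels shift if another isoform dominates.

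Some of the spread within the groups was shared between members. With the mimic, Oas1a, Oas1g, Oas3 and Oasl1 were higher in all of replicates 1, 2 and 5 than in any of replicates 3, 4 and 6, the split seen over all genes, where 21.3% of tested genes had that pattern and 23% its opposite. Oasl1 averaged 7.29 log2 CPM in the first 3 libraries and 6.97 in the others, whereas Oasl2 averaged 8.17 in both. Without mimic replicates 3, 4 and 6, the log2 fold change was 2.08 for Oasl1, 2.00 for Oas1g, 1.34 for Oas1a and 1.02 for Oas1b, and all 8 members were again higher. Control replicate 3 was the highest control for 7 of the 8 members, all but Oas1c, and control replicate 1 the lowest for 6 of the 8. Averaged over the members, these libraries stood at 0.20 and -0.18 log2 units from the control mean. The shares of all tested genes highest in control replicate 3 or lowest in control replicate 1 were not computed.

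The 4 genes tied to 2-5A that are reported in this list moved little. All 4 were tested, 1 was higher and 1 lower, and the median of the 4 fold changes was -0.03 on the log2 scale. Over all tested genes 15.4% were higher and 14.6% lower, so with 4 genes these counts lie near the background. Abce1, best known for recycling ribosomes, was higher by 0.19 ± 0.057 (SE; limma adjusted p = 0.0207), but not without control replicate 6 (0.17, adjusted p = 0.0581) or without mimic replicates 3, 4 and 6 (0.09, adjusted p = 0.181). Pde12, a phosphodiesterase that degrades 2-5A, was lower, at -0.14 ± 0.047 (SE; limma adjusted p = 0.0405); that call was lost under 11 of 22 alternatives, among them the omission of any one of mimic replicates 2, 3, 4 and 5 or control replicates 1, 2, 4 and 6 (limma adjusted p from 0.0519 to 0.113). Akap7, an anchoring protein with 2-5A phosphodiesterase activity in mice, measured -0.14 ± 0.054 (limma adjusted p = 0.0633) and passed as lower without mimic replicate 1 or 4 (adjusted p of 0.0482 and 0.0496). Enpp1, a nucleotide pyrophosphatase, measured 0.08 ± 0.044 (limma adjusted p = 0.157).

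Upstream of the family, Stat2 and Irf9, which encode parts of ISGF3, rose, while the receptor genes did not pass. Stat2 rose by 1.56 ± 0.090 (SE) and Irf9 by 0.71 ± 0.052 (limma adjusted p of at most 2.29e-08). The receptor genes Ifnar1 and Ifnar2 measured 0.04 ± 0.035 and 0.02 ± 0.054, and the receptor-bound kinase gene Tyk2 0.08 ± 0.041 (limma adjusted p from 0.127 to 0.777), although Ifnar2 passed as higher without mimic replicates 3, 4 and 6 (0.12, adjusted p = 0.0238). Jak1, the other kinase, was at 0.12 ± 0.043 (limma adjusted p = 0.0378), a call lost under 13 of 22 alternatives, among them the omission of any single control library (adjusted p from 0.0596 to 0.0795) or of mimic replicate 3, 4 or 6 (0.0735 to 0.0825). Of the 6 genes described here, 3 were higher and none lower, with a median of 0.10, beside 15.4% higher and 14.6% lower over all tested genes. The list was chosen with earlier results of these data known, so its counts are a description and not a test.

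Among feedback genes and other interferon regulatory factors, 4 of 6 were higher and none lower, with a median of 0.52. The shares over all tested genes were 15.4% higher and 14.6% lower. Earlier results of these data were known when this list was chosen, so its counts are no test. Usp18, which shuts off signalling at the receptor, rose by 1.82 ± 0.093 (SE) and Irf1 by 0.36 ± 0.074 (limma adjusted p of at most 0.00236). Irf7, whose messenger is the target of mouse Oasl1, had the largest rise of any gene in these lists, 2.51 ± 0.12 (limma adjusted p = 5.31e-09). Socs1, an inhibitor of the receptor's kinases, rose by 0.67 ± 0.16 (limma adjusted p = 0.00513). Irf3 measured -0.15 ± 0.055 (limma adjusted p = 0.0522) and passed as lower under 8 of 22 alternatives, such as without mimic replicate 1, 2 or 5 or control replicate 3 (-0.17, adjusted p from 0.0185 to 0.0438). Irf8 measured -0.07 ± 0.057.

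**Figure D4:**
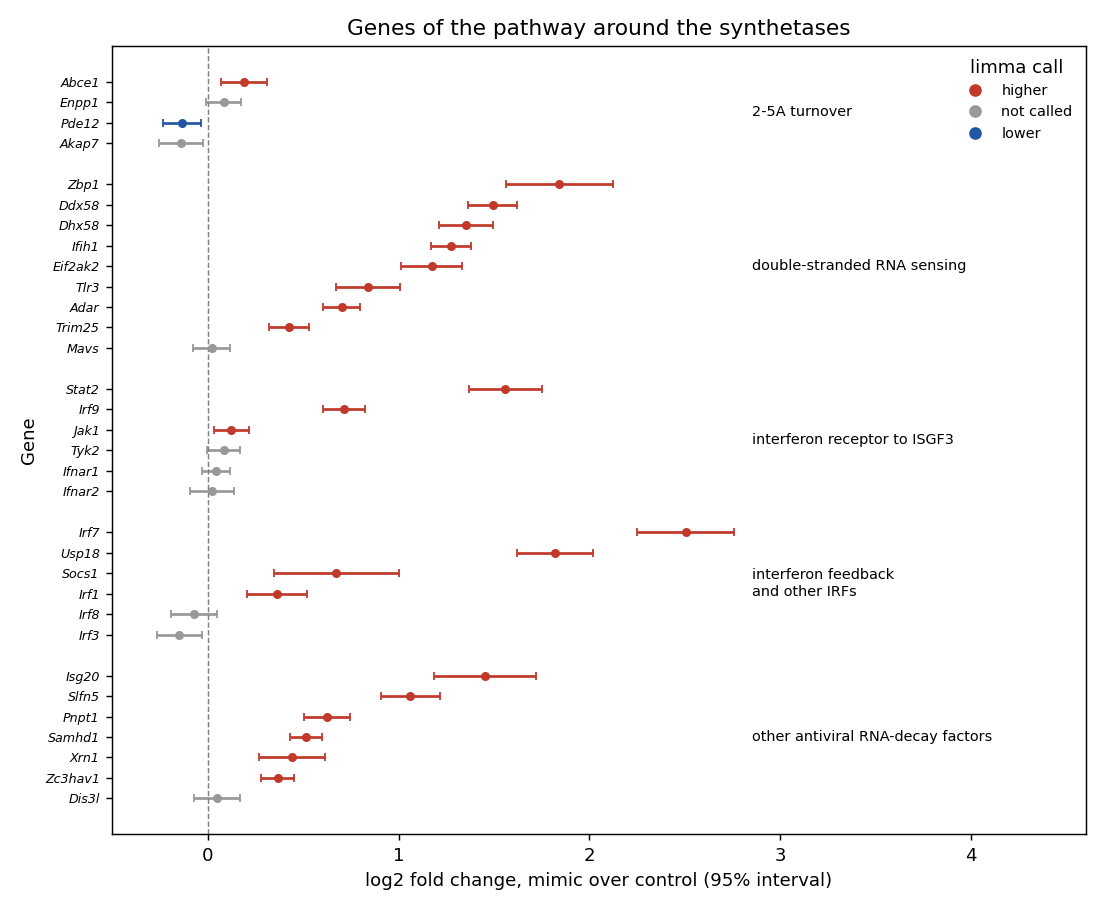
log2 fold change, mimic over control, with 95% limma interval, for the tested genes of 5 lists; red marks genes called higher, blue lower and grey not called. Irf7 at 2.51 and Zbp1 at 1.84 lie farthest right, and the 2-5A turnover genes lie between -0.14 and 0.19.

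Of 9 genes for the sensing of double-stranded RNA, the ligand of the synthetases, or for the signalling and editing around it, 8 were higher. The share over all tested genes was 15.4%, and the median of the 9 genes was 1.17. These genes were listed with earlier results of the data known, so the count is a description and not a test. Zbp1, a sensor of left-handed nucleic acid helices, rose by 1.84 ± 0.13 (SE), the helicase sensor Ddx58 by 1.49 ± 0.060, its regulator Dhx58 by 1.35 ± 0.067, Ifih1, a sensor of long duplexes, by 1.28 ± 0.049, the kinase Eif2ak2, which halts translation, by 1.17 ± 0.076 and Tlr3, the endosomal receptor, by 0.84 ± 0.079 (limma adjusted p of at most 6.78e-07). Adar, which edits and unwinds double-stranded RNA, rose by 0.70 ± 0.046 and Trim25, a ubiquitin ligase that also binds RNA, by 0.43 ± 0.049 (limma adjusted p = 5.31e-09 and 7.09e-06). The adaptor gene Mavs measured 0.02 ± 0.046 (limma adjusted p = 0.754).

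In a mixed list of other antiviral or RNA-decay factors, not all of which act on RNA, 6 of 7 genes were higher, with a median of 0.52. Isg20, an interferon-induced exonuclease, rose by 1.45 ± 0.13 (SE), Slfn5 by 1.06 ± 0.073, Pnpt1, a mitochondrial exoribonuclease, by 0.63 ± 0.057 and Samhd1, which depletes deoxynucleotides, by 0.52 ± 0.040 (limma adjusted p of at most 3.95e-07). Xrn1, the cytoplasmic 5′ exonuclease, rose by 0.44 ± 0.081 and Zc3hav1, which directs viral RNA to decay, by 0.37 ± 0.041 (limma adjusted p of at most 0.00112). Dis3l, a catalytic subunit of the exosome, measured 0.05 ± 0.057. The 6 of 7 stand beside the 15.4% of all tested genes that were called higher. As the list was chosen with earlier results of these data known, that count is no test.

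Interferon genes themselves were too low to test. Ifnb1 had 15 reads over the mimic libraries and 2 over the control libraries. Ifna2, Ifna4, Ifng, Ifne and Ifnl3 had at most 2 reads each over the mimic libraries and at most 3 over the controls. Ifna1, Ifna5 and Ifnl2 were not found under these names among the genes listed.

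Of the 5 protein-coding genes nearest on each side of each cluster, 20 in all, 11 were tested, and none was higher while 4 were lower. Over all tested genes 15.4% were higher and 14.6% lower. With 11 genes a count of 0 higher is near that background, while 4 lower is above it. Neither count was tested against the background. Next to the Oasl pair, 2210016L21Rik, which starts 4243 bases beyond Oasl1, measured -0.22 ± 0.051 (SE; limma adjusted p = 0.00536), and Acads, a mitochondrial dehydrogenase of fatty acid oxidation, -0.43 ± 0.083 (limma adjusted p = 0.00152). Beside the Oas cluster, the RNA helicase gene Ddx54 measured -0.15 ± 0.050 (limma adjusted p = 0.0361) and Rpl6, a ribosomal protein gene, -0.40 ± 0.11 (limma adjusted p = 0.0148).

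The genes with profiles most like the family's were other interferon-inducible genes. Likeness was the root mean square difference, over 11 libraries, between a gene's log2 CPM less its control mean and the same averaged over the 8 members. The closest were Irgm1, a GTPase (0.029), Xaf1, a promoter of cell death (0.072), the RNA helicase sensor Ddx58 (0.073), Znfx1, a helicase-like RNA sensor (0.10), and the guanylate-binding protein gene Gbp2 (0.10). The members themselves ranged from 0.12 for Oasl2 to 0.51 for Oas1c on this measure. The closest genes were picked for their low values and the members were not, so the values of the groups cannot be compared. The measure was not scaled for the size of the change, so it favours genes that rose about as much as the average member. The log2 fold changes of the closest genes ran from 1.39 for Znfx1 to 1.57 for Gbp2.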

How the data were processed

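RNA sequencing of 11 libraries was deposited as 1 table of 32265 rows for 31936 genes; the first row of each gene was kept, since the 258 repeated genes hold identical values. The submitters' processing notes name STAR, featureCounts, Subread and edgeR; their roles and versions, the genome build, the annotation and the strand setting are not given in the sources used here. Values per gene and library were deposited as log2 CPM. An offset of 0.5 reads and a scaling of each library's total account for the values: undoing both gave whole reads for 100% of them, to within 0.01 read. The deposited table also holds the authors' log2 fold changes with limits, a linear fold change (ratio with sign), p-values and adjusted p-values, and a test score and log odds; the test behind them is not given.

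A gene was tested if 5 or more libraries reached a log2 CPM of -1, which 12969 did. limma 3.58.1 in R 4.3.3, with trend and robust moderation and a group term only, was fitted to all of them, and calls were made at a Benjamini-Hochberg adjusted p below 0.05. This is the test fixed for log2 values. Member pairs were compared by exact permutation, with 95% intervals from inverting that test. Scripts were tested on simulated data. Replicates differed beyond sampling noise (2.41 to 39.5 chi-square units per degree of freedom), and each counted as 1 sample. Coding sequences were aligned with Biopython 1.88. The members and lists were chosen with earlier results of these data known. From the lists as first drawn up, 2 genes are not reported here and were taken out before counting. The named genes were all members, the other genes of the lists, the called chromosomal neighbours, and the 5 genes of most similar profile among those averaging 1 log2 CPM or more, Gm and Rik names left out. Alternatives covered scaling, filter, pseudocount, limma's voom with library weights (on recovered reads), moderation, the replicate number as a block, transcript length (lowess, span 0.3) and left-out libraries.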

Additional observations from a re-analysis of the deposited data

How the results depend on the processing

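All 8 members were higher under each of 22 alternatives. Mimic replicates 3, 4 and 6 were set apart on these same expression values, and replicates 1, 2 and 5 were not left out in their place. Without mimic replicates 3, 4 and 6, 1214 genes were higher and 886 lower, against 1997 and 1895 in all libraries. That fit has fewer samples. In that fit and under the replicate block, no gene of the 2-5A turnover list was higher and none lower (0 and 0). Its lower count was also 0 with no filter and 2 in the voom fit, and, leaving out single libraries, its higher count was 0 to 1 and its lower count 0 to 2. The lower count of the list of feedback genes and regulatory factors was 1 with library totals, with a filter on mean log2 CPM, in the voom fit and under the replicate block, and 0 to 1 with each library left out. The cause of these shifts was not tested. Whether replicate numbers shared by the groups pair the samples is not known. The correlation of deviations of same-numbered libraries lay between -0.0606 and 0.0623, and 2 of 5 libraries had their own number as best partner. These values cannot settle it, because the split among the mimic libraries is part of their deviations. With the replicate number as a block, 0 of 28 member pairs passed, because the smallest p that 5 numbers allow is 0.0625; all 15 differences between the sets of larger and smaller rise kept their direction. With each library left out in turn, 17 to 21 pairs passed. The alternative scalings moved the median of all genes by less than 0.01 log2 units. Depth limits Oas1b and Oas1c most, with as few as 59 and 99 reads in a control library.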

Other observations

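Relatives of Oas1 that are no members were nearly silent in these macrophages. Oas1d, Oas1e and Oas1f had 3, 3 and 2 reads over the mimic libraries and 1, 2 and 1 over the control libraries. Oas1h, which lies between Oas1b and Oas1g, was the exception, with 83 reads over the mimic libraries and 25 over the control libraries. It did not pass the filter on low values. Fitted with no filter, its log2 fold change was 1.22 ± 0.32 (SE; limma adjusted p = 0.00383). Its coding sequence is 81.1% identical to that of Oas1c in the aligned bases, and Oas1c shares 50-base stretches with it, so reads of the 2 genes may not be fully separable.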
